A study of Homo sapiens with 18 samples.

Results

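The comparison described here sets 3 microarrays labelled 22Rv1 shRNA scramble (titled sh202) against 3 microarrays of 22Rv1 control cells, 6 of the 18 arrays in the series, and asks how the line labelled scramble differs from the line without an shRNA label. The members were taken from the labels alone. 22Rv1 is an established human prostate carcinoma line that makes full-length androgen receptor and splice forms without the ligand-binding domain. The series altered ONECUT2, a homeobox transcription factor, by overexpression in 22Rv1 and LNCaP cells and by short hairpin RNA (shRNA) in 22Rv1 cells. Each group has 3 arrays. The other 22Rv1 groups are ONECUT2 shRNA (titled sh43) and ONECUT2 overexpression. The control cells carry the treatment label Vehicle. All 18 samples, controls included, list 1 and the same treatment protocol, in which stable lines were made by transduction with polybrene and puromycin selection, with a non-target hairpin plasmid as control, so the labels do not say whether the control cells were transduced or selected. In scramble against control, effects of virus, selection and outgrowth of a stable line therefore cannot be told apart from those of the hairpin itself. The ONECUT2 overexpression arrays (full-length coding sequence in a lentiviral vector) entered the 22Rv1 fit to estimate the spread. All lines grew in RPMI medium with serum. Nothing in the labels says that the 3 arrays of a group are separate cultures, so a p-value here is set by the variation among arrays, and that variation may be technical alone.

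ONECUT2 belongs to the ONECUT (HNF6) family, which binds DNA through a cut domain and a homeodomain and, in the embryo, helps to set up liver, pancreas, gut and neuronal gene programmes. An shRNA is processed by the cell's RNA interference machinery into a short guide that lowers a matching transcript. A scramble or non-target hairpin enters the same machinery but is designed to match no transcript, so it serves as the reference for a knockdown.

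Values are log2 expression per probe set (a group of probes for 1 transcript), and a difference of 1 is 2-fold. The error after a difference is its standard error (SE) in the fit, and after a mean it is the SD of 3 arrays. Signals under 4 on all 3 arrays of a group are taken as not detected there, and a fold against such a group is given as a bound. ONECUT2 itself went against the labels. The probe set with the highest signal, 239911_at, read 8.23, 8.15 and 8.25 on the control arrays and 6.63, 6.71 and 7.08 on those labelled scramble, and 8.46, 9.004 and 9.12 on the arrays labelled ONECUT2 shRNA. The scramble arrays were thus the lowest of the 9, with no overlap with either other group. The difference from control was -1.41 ± 0.15 (SE) on the log2 scale, 2.65-fold lower, with an adjusted p of 3.75e-06 (limma, over all 54613 probe sets). Against the arrays labelled ONECUT2 shRNA it was -2.05 ± 0.15, with an adjusted p of 3.01e-08. Of the other probe sets, 233446_at read 5.04, 5.48 and 5.75 on control and 3.43, 4.22 and 3.46 on scramble arrays, a difference of -1.72 ± 0.21 (adjusted p = 1.71e-05). Probe set 230271_at fell by 0.60 ± 0.13 (adjusted p = 0.00260). These 3 probe sets were all lower on the arrays labelled scramble than on the controls. The remaining pair, 207676_at and 233441_at, stayed under a log2 value of 4 on all 6 arrays and differed by -0.43 ± 0.15 (adjusted p = 0.0548) and -0.10 ± 0.09 (adjusted p = 0.562). The title sh43 matches the end of 1 of the ONECUT2 clone identifiers in the protocol, and sh202 matches the end of neither. Whether the labels of the shRNA groups were exchanged, or are wrong in another way, cannot be settled from these values. Every direction below is therefore that of the arrays labelled scramble, in which the transcript that the other hairpin was meant to lower was itself low. CUX1, another homeobox gene with cut domains, fell as well, by 0.75 ± 0.12 (adjusted p = 1.53e-04), although 1 of its other probe sets lay the opposite way.

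**Figure D1:**
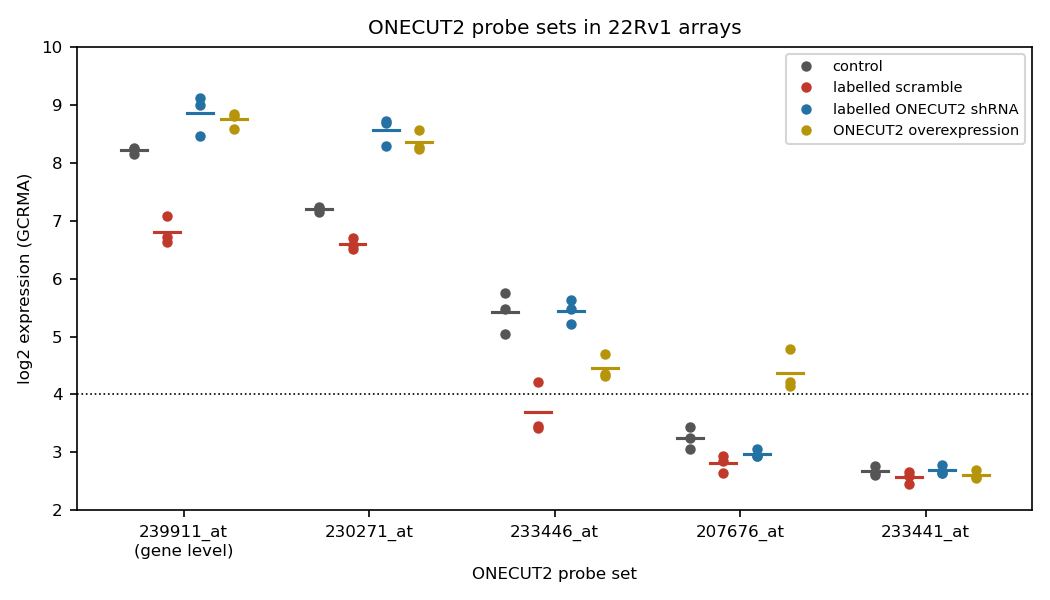
Log2 expression of the 5 ONECUT2 probe sets on each 22Rv1 array, by group, with a dotted line at the log2 value of 4 below which a signal is taken as not detected, and bars at the group means. On 239911_at, 233446_at and 230271_at the arrays labelled scramble lie below the control arrays, and on 239911_at and 230271_at the arrays labelled ONECUT2 shRNA lie above both.

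On the 6 arrays, medians over all probe sets ran from 3.27 to 3.30, and the share of probe sets above 4 was 38.8% to 39.3%. The deposited values had been normalized to equal array distributions, so this evenness was set in advance and is no check of the arrays. The lowest Pearson correlation between arrays over all probe sets was 0.997 within control, 0.996 within scramble and 0.989 between them. The labels give no batch. The difference between 3' and 5' actin probe sets, a measure of RNA integrity, was 4.11 ± 0.41 (SD, n = 3) on control and 3.88 ± 0.28 on scramble arrays. The same difference for GAPDH was -0.70 ± 0.09 and -0.75 ± 0.12, so the 2 genes gave unlike pictures of the ends. Exact two-sided permutation tests of scramble against control gave p = 0.6 for actin and 0.7 for GAPDH. With 3 against 3 arrays such a test has little power. Leukocyte and endothelial markers were under 4 on all 6 arrays for 8 of the 8 genes present, with summed log2 levels of 22.3 to 22.9 on control and 22.0 to 23.0 on scramble arrays. In bulk RNA, fewer cells of a type and less RNA per cell cannot be told apart. Of the 10 stromal markers, 5 were under 4 on all 6 arrays. The others include LUM, which encodes the matrix proteoglycan lumican and rose by 1.72 ± 0.12 on the log2 scale. The summed stromal level was 40.2 to 40.9 on control and 41.6 to 42.4 on scramble arrays.

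The difference from control was spread over much of the transcriptome. Of 11050 genes tested, 4711 (42.6%) differed at a Benjamini-Hochberg adjusted p under 0.05 in limma, the rule for a called gene, 2859 (25.9%) of them higher and 1852 (16.8%) lower on the arrays labelled scramble. Differences of at least 2-fold were found in 536 genes (4.85%) and leaned the other way, with 226 (2.05%) higher and 310 (2.81%) lower. At 4-fold or more, 35 genes were higher and 41 lower. In 5756 genes (52.1%) the 3 scramble arrays lay all above or all below the 3 controls. Over all probe sets, 9103 of 54613 (16.7%) were called. The median difference over all genes tested was 0.07 on the log2 scale, and 536 of the 4711 called differences reached 2-fold. After each array was centred on the median of the tested genes, 47.7% of calls were higher, against 60.7% without, so the split of small calls by direction depends on the scaling. The arrays labelled ONECUT2 shRNA, titled sh43, differed from the same controls in 2031 genes (18.4%), of which 109 (0.986%) reached 2-fold. The scramble arrays differed from those shRNA arrays in 5451 genes (49.3%). These 3 comparisons share arrays. With the 6 LNCaP arrays added to the fit and each gene's probe set chosen again by its mean over all 18 arrays, scramble against control gave 2629 calls in place of 4711, and genes named below that lose their call there are given with that p.

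**Figure D2:**
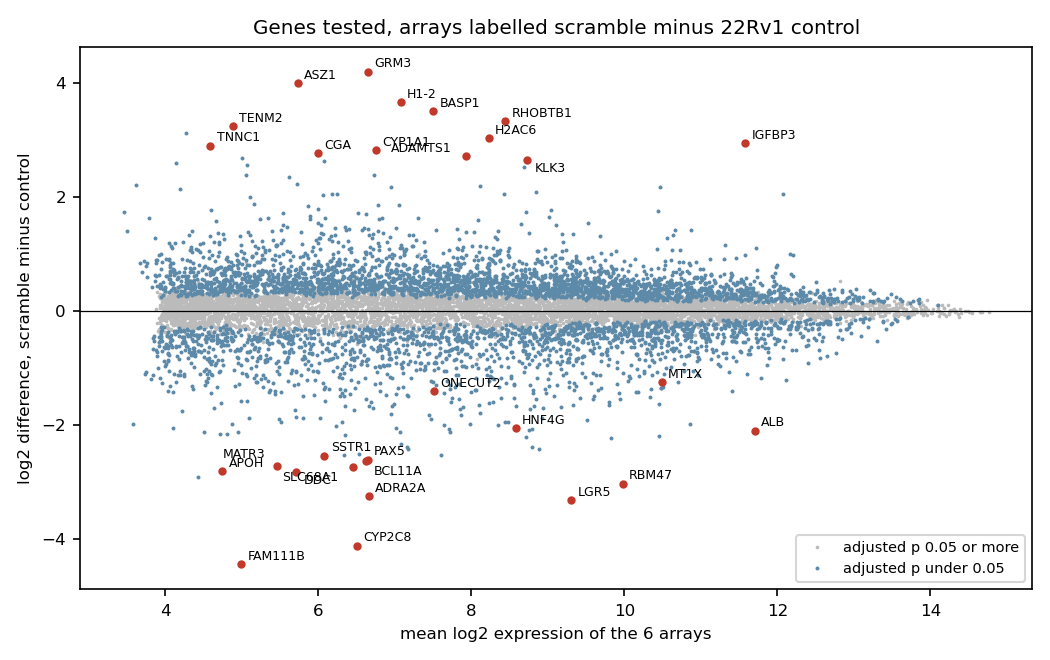
Log2 difference, scramble minus control, against the mean log2 expression of the 6 arrays, 1 point per gene tested (11050), with called genes coloured. Called genes lie on both sides of 0 over the range of mean expression, and the named extremes are FAM111B at -4.45 and GRM3 at 4.19.

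Among characterised coding genes with a mean of at least 6 in the higher group and no overlap between the groups, the 12 largest rises ran from 2.71 to 4.19 on the log2 scale. At the top was GRM3, a metabotropic glutamate receptor, which read 4.68, 4.61 and 4.35 on the control arrays and 8.78, 8.95 and 8.50 on those labelled scramble. ASZ1, known from germ cells for piRNA-guided transposon silencing, read 3.70, 3.78 and 3.73 on the control arrays and 7.74, 7.27 and 8.18 on those labelled scramble, so its rise was at least 13.3-fold against a level of 4. In both genes the 3 scramble arrays stood far above every control array. IGFBP3, which binds insulin-like growth factors in the medium, was already high and rose further, from 10.26, 10.24 and 9.82 to 13.19, 12.97 and 12.99, 7.67-fold (adjusted p = 4.28e-10). BASP1, a membrane-bound growth-cone protein, rose by 3.51 ± 0.14, and RHOBTB1 by 3.32 ± 0.12. The list also holds the teneurin TENM2 (at least 5.66-fold), the troponin TNNC1 (at least 4.10-fold), the glycoprotein hormone alpha subunit CGA (6.80-fold), the matrix protease ADAMTS1 (6.54-fold) and the histones H1-2 and H2AC6, described below. CYP1A1, a cytochrome P450 induced by the aryl hydrocarbon receptor, rose by 2.82 ± 0.12. Among other genes induced by that receptor, chosen after their values were seen, TIPARP rose by 0.42 ± 0.08 (adjusted p = 9.83e-04), while CYP1B1 differed by -0.20 ± 0.19 (adjusted p = 0.423, or 0.00354 by the mean of its probe sets) and AHRR by 0.10 ± 0.14 (adjusted p = 0.579). Of genes below that mean of 6, also chosen after their values were seen, INHBA, the activin beta A subunit, read 2.75, 2.66 and 2.73 on the control arrays and 6.19, 5.42 and 5.88 on those labelled scramble, a rise of at least 3.55-fold, and IGFBP7 rose at least 2.71-fold.

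All 12 of these genes were also higher on the scramble arrays than on the arrays labelled ONECUT2 shRNA, by 2.38 to 5.36 on the log2 scale (largest adjusted p = 7.65e-09). The 12 were picked for high values on the scramble arrays, which enter both comparisons, so these differences are description and no separate support. ASZ1, TENM2 and TNNC1 were under 4 on every control array and passed the filter through the scramble arrays alone. The control arrays lay between the lines for CGA, which averaged 3.60 ± 0.10 (SD, n = 3) on the shRNA arrays and 4.61 ± 0.26 on the controls. This order was not particular to CGA: BASP1, CYP1A1, H1-2 and H2AC6 had it too. For GRM3, RHOBTB1 and IGFBP3 the shRNA arrays were intermediate, at 5.87 ± 0.38, 7.72 ± 0.14 and 10.56 ± 0.16.

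By the same rule, the 12 largest falls ran from -4.45 to -2.54. FAM111B, a protease-domain gene linked to DNA replication, read 6.83, 7.40 and 7.42 on the control arrays and 2.75, 2.93 and 2.63 on those labelled scramble, at least 9.30-fold lower. It was also low on the arrays labelled ONECUT2 shRNA, at 4.57, 3.85 and 4.42, against control an adjusted p of 4.22e-07, and the scramble arrays were lower still (difference -1.51 ± 0.20, adjusted p = 2.58e-05). CYP2C8, a hepatic drug-metabolising P450, read 8.78, 8.31 and 8.58 on the control arrays and 4.36, 4.57 and 4.39 on those labelled scramble, 17.4-fold lower. LGR5, a receptor for R-spondins that marks stem cells of the gut, read 11.05, 10.67 and 11.19 on the control arrays and 7.67, 7.53 and 7.73 on those labelled scramble, 10.0-fold lower. For CYP2C8 and LGR5 the shRNA arrays did not share the low level: they averaged 9.03 ± 0.09 and 11.68 ± 0.16, with the scramble arrays below them by 4.59 and 4.04. The alpha-2 adrenergic receptor ADRA2A fell by 3.25 and RBM47, an RNA-binding partner of the cytidine deaminase that edits APOB, by 3.03. DDC, which makes dopamine and serotonin from their amino acid precursors, fell by 2.83. The transporter SLC68A1 (6.66-fold), the nuclear matrix protein MATR3 (6.59-fold), the lymphoid transcription factors BCL11A (6.19-fold) and PAX5 (6.10-fold), the somatostatin receptor SSTR1 (5.81-fold) and the plasma protein APOH complete the 12. Their differences from the arrays labelled ONECUT2 shRNA ran from -4.59 to -1.51 (largest adjusted p = 2.58e-05), and in all 12 the scramble arrays were the lower. These 12 were picked for low values on the same scramble arrays, so these differences too are no separate support. FAM111B and APOH were under 4 on every scramble array and passed the filter through the control arrays alone.

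**Figure D3:**
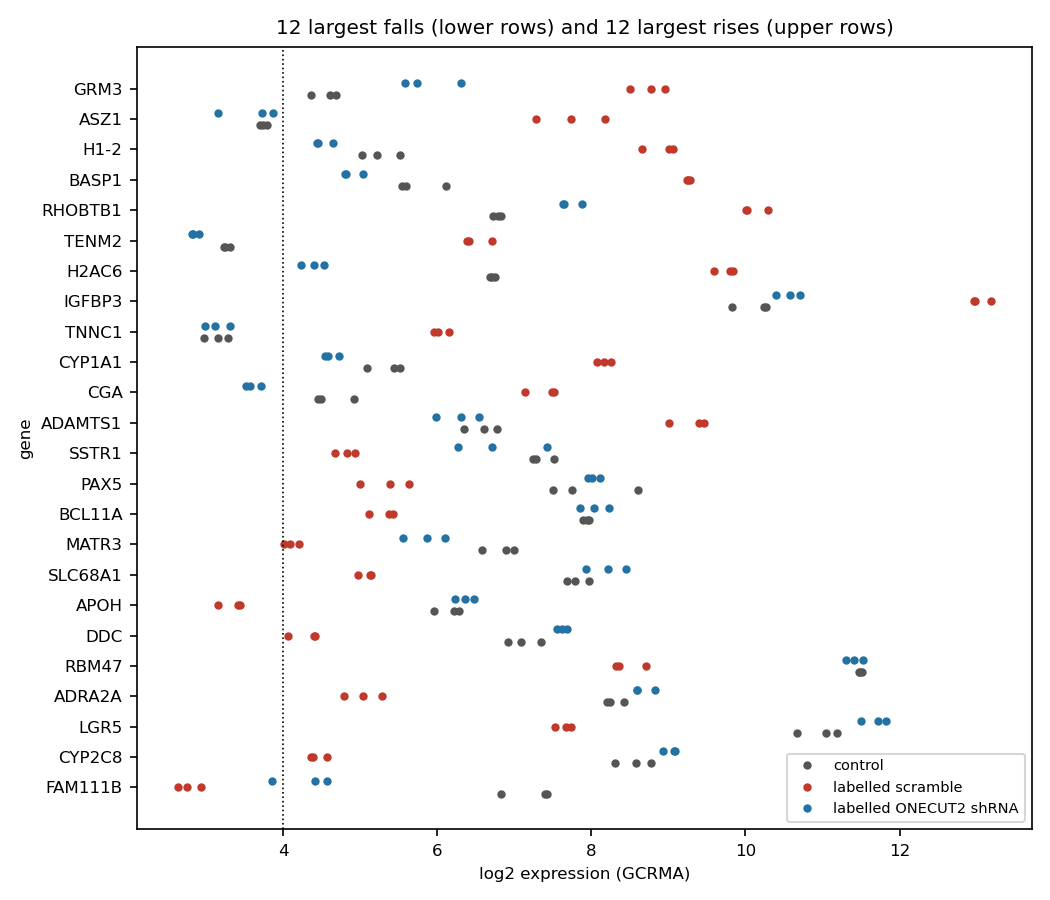
Log2 expression on each control, scramble and ONECUT2 shRNA array for the 12 largest rises (upper rows) and 12 largest falls (lower rows), with a dotted line at 4. In every row the 3 arrays labelled scramble stand apart from the 3 controls. The shRNA arrays lie far below the controls for FAM111B among the falls, and for H2AC6 among the rises.

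Genes of the liver and gut lineage fell together. Of 26 listed genes of the hepatocyte nuclear factor (HNF) network and its gut and liver targets, 23 have a probe set here and 9 were tested. Of those, 7 fell and 0 rose, against 16.8% lower among all genes, and their median was -1.15 against 0.07. ONECUT2, the gene that checks the labels, is 1 of the 7. APOH, CDH17, AMBP and AFP were under 4 on every scramble array and passed the filter through the control arrays alone. A gene that enters that way is lower on the scramble arrays by construction. The direction of these genes is therefore no separate support, and the count for this list is description only. SPINK1 was not called, nor was VIL1, which differed by 0.23 ± 0.15 (adjusted p = 0.232, or 0.0459 and 0.39 higher without control replicate 2). ALB, serum albumin, read 12.81, 12.60 and 12.85 on the control arrays and 10.86, 10.50 and 10.59 on those labelled scramble, 4.29-fold lower. HNF4G, a nuclear receptor of the gut that binds the same DNA elements as HNF4A, read 9.78, 9.38 and 9.67 on the control arrays and 7.33, 7.36 and 7.94 on those labelled scramble, 4.18-fold lower. APOH, the plasma protein beta-2-glycoprotein I, read 6.28, 6.21 and 5.96 on the control arrays and 3.44, 3.15 and 3.41 on those labelled scramble. In each of these genes the scramble arrays lay below every control array, and APOH dropped under 4. CDH17, the liver-intestine cadherin, fell at least 1.77-fold, AMBP at least 1.39-fold and the fetal plasma protein AFP at least 1.37-fold. On the arrays labelled ONECUT2 shRNA, ALB averaged 12.99 ± 0.13 and HNF4G 9.39 ± 0.04, above the scramble arrays by 2.34 and 1.84 (adjusted p = 1.28e-10 and 9.66e-08). With the filter raised to a log2 value of 6, 3 genes of this list were called lower, since fewer of these dim genes were tested.

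Further genes of the same tissues, chosen after their values were seen, lay the same way. A1CF, the cofactor of APOB messenger RNA editing, fell by 2.33, GCG, which encodes glucagon and GLP-1, by 2.01, and the apolipoprotein APOC1 by 1.95. PON1, a serum esterase made in liver, fell by 1.67 and the brush-border peptidase DPP4 by 1.68. GCG read 8.60, 8.58 and 8.78 on the control arrays and 6.58, 6.50 and 6.84 on those labelled scramble. As they were picked for their fall, they add description and no count.

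The promoters of ALB and APOH are shown because both genes fell and HNF1 is known to act on both promoters in liver. They are the 250 bases before the RefSeq transcription start on GRCh38.p14, 5' to 3' on the gene's strand. Capitals mark matches on either strand to the ONECUT core ATTGAT or ATTGAC, held by 10.3% of 35116 promoter windows of the same length, and to the HNF1 core GTTAAT, held by 6.23%.
ALB (chr4:73404037-73404286, plus strand): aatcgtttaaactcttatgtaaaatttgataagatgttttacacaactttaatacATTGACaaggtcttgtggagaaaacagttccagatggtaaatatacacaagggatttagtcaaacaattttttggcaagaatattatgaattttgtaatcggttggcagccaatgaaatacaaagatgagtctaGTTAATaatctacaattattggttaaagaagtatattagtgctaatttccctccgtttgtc
APOH (chr17:66229416-66229665, minus strand): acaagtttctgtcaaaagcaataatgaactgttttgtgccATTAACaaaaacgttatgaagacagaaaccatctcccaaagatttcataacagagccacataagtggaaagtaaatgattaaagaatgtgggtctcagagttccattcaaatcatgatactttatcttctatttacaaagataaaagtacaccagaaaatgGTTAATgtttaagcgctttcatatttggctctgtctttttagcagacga
ALB has 1 match to each core and APOH has none to the ONECUT core and 2 to the HNF1 core. CYP2C8, with the larger fall, has no match to either in its window. A match is a run of letters and says nothing about binding in these cells.

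Histone genes rose. Of 16 listed, 12 have a probe set and 9 were tested: 7 rose, 0 fell and the median was 1.71, against 25.9% higher and a median of 0.07 over all genes. The linker histone H1-2 read 5.22, 5.51 and 5.02 on the control arrays and 9.003, 9.06 and 8.66 on those labelled scramble. The core histone gene H2AC6 read 6.74, 6.71 and 6.69 on the control arrays and 9.79, 9.59 and 9.83 on those labelled scramble, 8.15-fold higher, and H2BC21 read 7.39, 7.53 and 7.33 on the control arrays and 10.27, 9.95 and 9.61 on those labelled scramble, 5.75-fold higher. None of these arrays overlapped between groups. H2BC12 rose 3.37-fold, H4C8 3.27-fold, H2BC5 3.08-fold and the H2A variant H2AJ 1.74-fold. The others tested were H2AZ1, a replication-independent variant, at -0.01 ± 0.06 (adjusted p = 0.945), and the linker histone H1-10 at 0.33 ± 0.18 (adjusted p = 0.163). H2BC6 (3.16-fold), H2BC9 (at least 2.79-fold) and H2BC12L (4.53-fold), chosen after their values were seen, also rose. Histone genes of a class are close to identical in sequence, so probe sets of H2B genes may read each other and are not separate evidence.

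For H2AC6 and H2BC21 the scramble arrays were the highest of the 3 lines and the shRNA arrays the lowest. H2AC6 averaged 4.38 ± 0.15 on the arrays labelled ONECUT2 shRNA, 6.71 ± 0.03 on the controls and 9.74 ± 0.13 on the scramble arrays, with scramble above shRNA by 5.36 ± 0.11 (adjusted p = 1.17e-13). H2BC21 stood at 5.72 ± 0.20, 7.42 ± 0.10 and 9.94 ± 0.33. Most histone messages end in a stem-loop without a poly(A) tail, and the labelling used here starts from oligo(dT), so these values report the polyadenylated part. The ribosomal RNA control probe sets moved the other way: the 5' set read 8.93 ± 0.19 on control and 7.47 ± 0.19 on scramble arrays, the middle set 8.38 ± 0.22 and 6.84 ± 0.19, and the 3' set 7.34 ± 0.07 and 5.90 ± 0.07 (exact permutation p = 0.1 each, two-sided, the smallest that 3 against 3 arrays allow). The shRNA arrays read 9.17 ± 0.43 on the 5' set, 8.51 ± 0.60 on the middle set and 6.88 ± 0.39 on the 3' set, so they lay above control on the 5' and middle sets and below it on the 3' set. The part of RNA composition in the histone result was not tested.

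The windows of H2AC6 and H2BC21 are shown because these genes rose together. Capitals mark the octamer ATTTGCAT, which 1.63% of the 35116 windows hold, and the CCAAT box, which 32.0% hold, on either strand.
H2AC6 (chr6:26123922-26124171, plus strand): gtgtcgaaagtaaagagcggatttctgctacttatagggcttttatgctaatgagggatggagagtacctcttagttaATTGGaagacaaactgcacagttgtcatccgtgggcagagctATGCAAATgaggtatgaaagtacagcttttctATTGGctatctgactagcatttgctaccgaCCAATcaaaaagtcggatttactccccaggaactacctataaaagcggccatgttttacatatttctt
H2BC21 (chr1:149886683-149886932, minus strand): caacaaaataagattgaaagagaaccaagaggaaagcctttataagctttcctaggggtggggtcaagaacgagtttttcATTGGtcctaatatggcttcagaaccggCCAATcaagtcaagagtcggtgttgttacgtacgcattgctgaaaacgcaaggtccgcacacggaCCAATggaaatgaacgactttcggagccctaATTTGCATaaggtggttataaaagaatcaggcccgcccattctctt
Each holds 1 octamer and 3 CCAAT boxes. Of the other genes of the list that rose, H2BC12 has 1 octamer in its window, and H1-2, H2BC5, H4C8 and H2AJ have none.

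Metallothioneins, small cysteine-rich proteins that bind zinc and copper and are induced by metal through the factor MTF1, fell. All 6 tested, MT1E, MT1F, MT1G, MT1H, MT1X and MT2A, were lower, by 1.05 to 1.71 on the log2 scale. MT1X read 11.001, 11.13 and 11.21 on the control arrays and 9.97, 9.78 and 9.84 on those labelled scramble, MT2A read 11.19, 11.51 and 11.58 on the control arrays and 10.42, 10.44 and 10.27 on those labelled scramble, and MT1F, with the largest difference, read 9.79, 9.83 and 9.73 on the control arrays and 8.08, 8.12 and 8.02 on those labelled scramble. No scramble array reached the lowest control array in any of the 3. The genes are close paralogs, so the 6 probe sets may share signal. With the zinc transporters, the list had 12 tested genes of which 9 fell and 2 rose, against 16.8% lower among all genes, with a median of -0.78 against 0.07. SLC30A4, which moves zinc into vesicles, went against the rest and read 5.33, 5.26 and 5.08 on the control arrays and 7.06, 7.25 and 7.49 on those labelled scramble, a 4.13-fold rise. The importer SLC39A4 fell by 0.51 ± 0.11. On the arrays labelled ONECUT2 shRNA MT1X averaged 10.88 ± 0.13 and MT2A 11.39 ± 0.05, above the scramble arrays by 1.02 and 1.02 (adjusted p = 1.73e-07 and 4.74e-07).

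The windows of MT1X and MT2A, on chromosome 16, are shown for the element through which metal acts. Capitals mark the metal response core TGCNCNC on either strand, a loose motif that 49.1% of windows hold at least once.
MT1X (chr16:56682220-56682469, plus strand): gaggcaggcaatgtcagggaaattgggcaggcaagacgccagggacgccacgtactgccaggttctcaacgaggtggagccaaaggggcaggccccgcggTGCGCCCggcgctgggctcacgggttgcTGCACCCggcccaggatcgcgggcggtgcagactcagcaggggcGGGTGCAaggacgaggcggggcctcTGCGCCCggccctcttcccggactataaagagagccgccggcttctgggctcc
MT2A (chr16:56608334-56608583, plus strand): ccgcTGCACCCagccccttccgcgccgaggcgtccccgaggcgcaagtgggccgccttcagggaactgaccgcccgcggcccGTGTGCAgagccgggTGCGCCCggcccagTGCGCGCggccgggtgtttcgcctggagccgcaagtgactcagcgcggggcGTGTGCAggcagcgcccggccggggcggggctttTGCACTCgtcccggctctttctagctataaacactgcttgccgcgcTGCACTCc
MT1X holds 4 matches and MT2A holds 7.

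**Figure D4:**
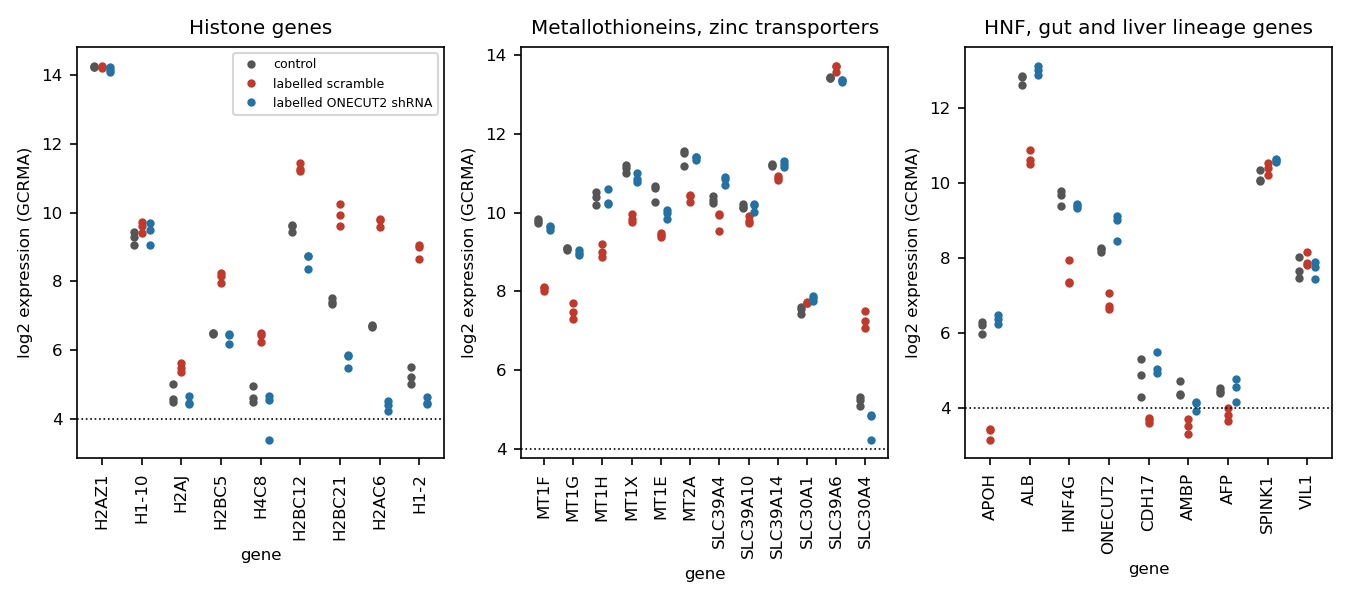
Log2 expression on each control, scramble and ONECUT2 shRNA array for the tested members of the liver and gut, histone, and metallothionein and zinc lists, with a dotted line at 4. Of the tested members, 7 liver and gut genes and all 6 metallothioneins are lower, and 7 histone genes higher, on the arrays labelled scramble than on the controls.

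Genes of prostate luminal identity went both ways: of 18 tested, 7 rose and 6 fell, against 25.9% higher and 16.8% lower among all genes. The share called was 72.2%, against 42.6% of all genes, and the median was -0.06 against 0.07. KLK3, which encodes prostate-specific antigen and is a standard readout of the androgen receptor, read 7.12, 7.54 and 7.53 on the control arrays and 10.15, 10.18 and 9.80 on those labelled scramble, and 5.60, 5.86 and 5.76 on the arrays labelled ONECUT2 shRNA. The 3 lines did not overlap, with scramble highest, 6.25-fold above control (adjusted p = 2.13e-09) and 4.30 ± 0.13 above shRNA on the log2 scale (adjusted p = 1.60e-11). Of its other probe sets, 1 differed by 2.73 and 1 by 0.18. The neighbouring kallikrein KLK2 rose by 0.68 ± 0.09 (adjusted p = 3.53e-05, or 0.380 with the LNCaP arrays in the fit). KLK2 and KLK3 are close paralogs and may share probe signal. KLK11, chosen after its values were seen, fell by 2.52. The luminal keratin KRT19 rose from 7.74, 7.89 and 7.90 to 9.57, 9.55 and 9.61, and the pioneer factor GATA2 rose by 0.56 ± 0.09. HOXB13, the prostate homeobox factor, fell by 0.93 ± 0.11 and the transporter SLC45A3, an androgen-responsive luminal gene, by 1.00 ± 0.14. FOXA1, which opens chromatin for the androgen receptor, differed by -0.13 ± 0.10 (adjusted p = 0.294), with the arrays overlapping. The mean of its probe sets gave -0.34 (adjusted p = 0.0342). The surface protein CD44, the 1 basal marker tested, fell by 1.98 ± 0.14.

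Of 9 tested enzymes that make or remove steroids, 5 fell and 1 rose, against 16.8% lower and 25.9% higher among all genes, and the median was -0.43 against 0.07. With the LNCaP arrays in the fit, 3 were called lower. UGT2B15 and UGT2B28, which glucuronidate androgens, fell by 1.41 ± 0.07 and 2.52 ± 0.14 (adjusted p = 2.49e-09 and 7.09e-09, but 0.300 and 0.112 with the LNCaP arrays in the fit). UGT2B28 read 8.73, 8.91 and 8.95 on the control arrays and 6.62, 6.03 and 6.37 on those labelled scramble. UGT2B4, a related gene chosen after its values were seen and dimmer than the mean of 6 set for the largest falls, fell at least 3.68-fold. The UGT2B genes are near-identical copies, so their signals may be shared. HSD17B6, which oxidises androgen diols, fell by 1.25 ± 0.14. AKR1C3, which makes testosterone from androstenedione, fell from 8.51, 8.39 and 8.34 to 7.18, 6.77 and 7.17. It read 7.17, 6.995 and 6.83 on the arrays labelled ONECUT2 shRNA, and the difference between the lines was 0.04 ± 0.13 (adjusted p = 0.812).

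In cholesterol and fatty acid synthesis, 10 of 18 genes fell and 0 rose, against 16.8% lower and 25.9% higher among all genes, and the median was -0.33 against 0.07. SQLE, squalene epoxidase, read 10.83, 10.78 and 10.75 on the control arrays and 9.91, 9.91 and 9.95 on those labelled scramble and fell by 0.86 ± 0.06 (adjusted p = 1.16e-07). HMGCS1, the synthase that precedes HMG-CoA reductase, fell by 0.71 ± 0.12. The desaturase SCD fell by 1.07 ± 0.07 (adjusted p = 2.53e-08, or 0.0518 with the LNCaP arrays, where 3 genes of the list were called lower in place of 10). On the arrays labelled ONECUT2 shRNA these genes lay above control: SCD averaged 12.76 ± 0.11 and SQLE 11.24 ± 0.03 (adjusted p against control = 1.97e-06 and 3.75e-04), so the contrast with scramble was larger, -1.93 ± 0.07 and -1.31 ± 0.06. Of 23 genes of the unfolded protein and amino acid stress responses, 11 fell and 1 rose, with a median of -0.15, beside the same shares of all genes. The chaperone HSP90B1 fell by 1.34 ± 0.14, the serine synthesis enzyme PHGDH by 0.54 ± 0.07, and HERPUD1 and SEL1L, of endoplasmic reticulum degradation, by 0.46 and 0.51. The stress factor ATF3 fell by 0.62 and was lower still on the shRNA arrays, at 8.02 ± 0.19 (adjusted p against scramble = 0.00124). The number of falls in this list was 6 with the LNCaP arrays in the fit.

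Lists of genes that can answer to virus, double-stranded RNA or a selection drug had 20.0% to 50.0% of members called, against 42.6% of all genes. Over all genes, 25.9% were higher and 16.8% lower, and the median was 0.07. Any part of virus, hairpin or selection in these values was not tested. Among interferon-stimulated genes, 4 of 17 rose and 3 fell (median 0.03). HERC5, the ligase that attaches ISG15, read 6.07, 6.004 and 6.03 on the control arrays and 7.45, 7.41 and 7.30 on those labelled scramble and rose 2.55-fold, while the membrane protein IFITM2 fell by 0.77 ± 0.10 and ISG15 itself differed by 0.03 ± 0.07 (adjusted p = 0.765). So the interferon list showed no common direction. Of 8 sensors and adaptors of double-stranded RNA, 2 rose and 1 fell. The sensor IFIH1 (MDA5) fell 3.00-fold, from 6.80, 6.77 and 7.05 to 5.53, 4.90 and 5.43, and averaged 7.54 ± 0.17 on the shRNA arrays. In the RNA interference machinery 4 of 12 rose and 1 fell (median 0.15). The Argonaute gene AGO4 rose by 0.53 ± 0.09 (adjusted p = 2.60e-04, or 0.0713 with the LNCaP arrays). Among drug efflux transporters 2 of 6 rose and 1 fell, led by ABCC5 at 8.63, 8.62 and 8.55 on the control arrays and 9.84, 9.79 and 9.76 on those labelled scramble, 2.30-fold. Of 18 p53 targets, 7 rose, 1 fell and 10 were not called (median 0.24). The 1 that fell was MDM2, and differences in the list ran from -0.85 to 0.84. SESN1, a stress-induced inhibitor of mTORC1, rose by 0.84 ± 0.12, and the death receptor TNFRSF10B by 0.45 ± 0.09. The cytokine GDF15 rose by 0.74 ± 0.15 and averaged 11.32 ± 0.05 on the shRNA arrays, where the lines differed by 0.03 ± 0.15 (adjusted p = 0.870). In the list of NF-kappaB and cytokine genes 1 of 5 fell and 0 rose, and in antigen presentation 3 of 10 rose and 2 fell, with the transporter TAP2 lower by 0.75 ± 0.12.

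Cell-cycle genes differed by little. Of 26 mitotic genes, 9 rose and 1 fell (median 0.17), against 25.9% higher and 16.8% lower among all genes. The share called was 38.5% for mitosis, 36.0% for G1-S and DNA replication and 60.0% for CDK inhibitors and G1 cyclins. Of all genes, 42.6% were called. The kinase AURKB rose by 0.68 ± 0.12 and the cyclin CCNA2 fell by 0.42 ± 0.08. Another CCNA2 probe set over the filter differed by -0.04, with the arrays overlapping. Of 25 genes of G1-S and DNA replication, 3 rose and 6 fell, among them the helicase subunit MCM3, which fell by 0.50 ± 0.08. The cyclin CCNE1 rose by 0.67 ± 0.10. Larger differences were in the regulators, of which 4 of 10 rose and 2 fell: the G1 kinase CDK6 read 6.67, 6.65 and 6.33 on the control arrays and 5.13, 5.16 and 4.86 on those labelled scramble, 2.83-fold lower, and its inhibitor CDKN2D read 5.23, 5.49 and 5.40 on the control arrays and 6.67, 6.72 and 6.54 on those labelled scramble, 2.41-fold higher. Both were also apart from the arrays labelled ONECUT2 shRNA, by -1.77 ± 0.12 and 1.09 ± 0.17.

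Signalling lists held rises and falls side by side. Over all genes, 25.9% were called higher and 16.8% lower, 42.6% together. Called shares here were 50.0% for ERK, 57.1% for immediate early, 40.0% for TGF-beta and SMAD, 55.6% for Wnt feedback and 36.4% for Notch genes. Of 12 brakes and outputs of the ERK pathway, 5 fell and 1 rose (median -0.18). DUSP6, the phosphatase that ERK signalling induces and that dephosphorylates ERK, read 8.82, 8.92 and 9.05 on the control arrays and 7.31, 7.17 and 7.36 on those labelled scramble, 3.13-fold lower, and the inhibitor SPRED2 fell by 0.62 ± 0.08. PHLDA1 went the other way, 2.91-fold higher. Of 14 immediate early genes, 6 rose and 2 fell. FOS, 1 of the rises, was under 4 on every control array, and EGR3, 1 of the falls, on every scramble array. Each passed the filter through the other group alone, so its direction was set by construction and is no separate support. IER3, an early-response survival gene, rose from 4.19, 4.35 and 4.14 to 6.34, 6.13 and 5.82 (adjusted p = 3.27e-08, or 0.0811 with the LNCaP arrays). In the TGF-beta and SMAD list 4 of 15 rose and 2 fell. The rises included the BMP targets ID1, ID2 and ID3, inhibitors of helix-loop-helix factors, by 1.00 ± 0.10, 0.77 ± 0.12 and 0.80 ± 0.07. The ligand TGFB1 and its effector SMAD3 fell by 1.04 and 0.70. Of 9 Wnt feedback genes, 3 rose and 2 fell: beside LGR5, the receptor TNFRSF19 fell by 1.70, while RNF43, the ligase that removes Frizzled receptors, rose by 1.06 ± 0.10 and the nuclear factor LEF1 by 0.63 ± 0.10. AXIN2, a general Wnt target, differed by 0.21 ± 0.15 (adjusted p = 0.284). In the Notch pathway 2 of 11 rose and 2 fell, the falls being the ligands DLL1 (1.32) and DLL3 (0.89).

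Among 12 NRF2 targets, 3 rose and 2 fell (median 0.06), against 25.9% higher and 16.8% lower among all genes. The share called was 41.7% for this list and 60.0% for hypoxia and glycolysis, against 42.6% of all genes. NQO1, a quinone reductase, read 8.15, 8.63 and 8.28 on the control arrays and 9.95, 9.97 and 9.65 on those labelled scramble, and HMOX1, heme oxygenase, rose by 1.40 ± 0.14, while the glutathione enzyme GCLC fell by 0.24 ± 0.07. Of 20 hypoxia and glycolysis genes, 7 rose and 5 fell, with the peptide hormone ADM (2.60-fold) and the collagen hydroxylase P4HA2 (2.17-fold) higher and NDRG1 (1.88-fold) lower. The glycolytic enzyme LDHA differed by 0.03 ± 0.04 (adjusted p = 0.629). Both lists thus held large single rises beside members that did not pass the test.

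Neuroendocrine prostate cancer is a setting in which ONECUT2 is known to be studied. Of 11 neuroendocrine markers tested, 3 fell and 0 rose (median -0.11). CHGA, the granule protein chromogranin A, read 4.88, 5.14 and 5.05 on the control arrays and 4.05, 4.04 and 3.84 on those labelled scramble, 2.07-fold lower. SCG3 and the splicing regulator CELF3 fell by 0.69 and 0.95. For PEG10, derived from a retrotransposon, the difference was 0.18 ± 0.07 (adjusted p = 0.0520), a value that passes without control replicate 3 (0.0355) or without scramble replicate 2 (0.0225). Of 12 neuronal and axon genes, 5 fell and 2 rose. GPM6A, a neuronal membrane glycoprotein, read 10.16, 9.84 and 10.30 on the control arrays and 7.24, 7.23 and 8.53 on those labelled scramble, 5.40-fold lower. The adhesion molecules NRCAM and L1CAM fell 3.69-fold and at least 1.65-fold. L1CAM was under 4 on every scramble array and passed the filter through the control arrays alone, so its direction is no separate support. RTN1 rose by 1.02 ± 0.16. The share called was 58.3% for the neuronal and axon list and 27.3% for the neuroendocrine markers, against 42.6% of all genes. Over all genes, 25.9% were higher and 16.8% lower. The spread within the neuronal and axon list was wide.

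Among 7 genes of epithelial-mesenchymal transition tested, 3 rose and 3 fell: vimentin (VIM) rose from 6.46, 6.50 and 6.59 to 7.90, 8.05 and 7.58, while N-cadherin (CDH2) fell by 1.09 ± 0.16 and tenascin C (TNC) fell 5.38-fold. These mesenchymal genes did not share a direction. The share called was 85.7% for this list and 41.7% for the extracellular matrix, against 42.6% of all genes. In the extracellular matrix list 2 of 12 rose and 3 fell, and the laminin chain LAMB1 fell by 0.90 ± 0.15. Of 17 lysosome and autophagy genes, 8 rose and 2 fell, against 25.9% higher and 16.8% lower among all genes, and the median was 0.34 against 0.07. GABARAPL1 and MAP1LC3B, which coat autophagosomes, rose by 1.17 ± 0.14 and 0.71 ± 0.07, and the lysosomal channel MCOLN1 and the hexosaminidase HEXA by 0.84 ± 0.12 and 0.66 ± 0.11. The protease CTSL and the membrane protein LAMP2 fell by 1.24 and 0.74. Of 3 other LAMP2 probe sets over the filter, 1 lay apart the same way and 2 overlapped between groups (-0.41 and -0.39). In the retinoid list 1 of 5 fell, ALDH1A1, which makes retinoic acid, by 1.45 ± 0.13. In the BCL2 family 3 of 11 rose and 1 fell. The share called was 20.0% for the retinoid list, 36.4% for the BCL2 family and 20.0% for the respiratory chain, against 42.6% of all genes. Housekeeping classes differed by little: of 20 respiratory chain subunits 1 rose and 3 fell, SDHD of complex II by 0.82 ± 0.08. None of the 14 cytosolic ribosomal proteins was called by limma (median -0.03), with 1 at an unadjusted p under 0.05. None was called without the trend and robust options either, 1 after a further quantile normalization, and 6 after median centring.

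**Figure D5:**
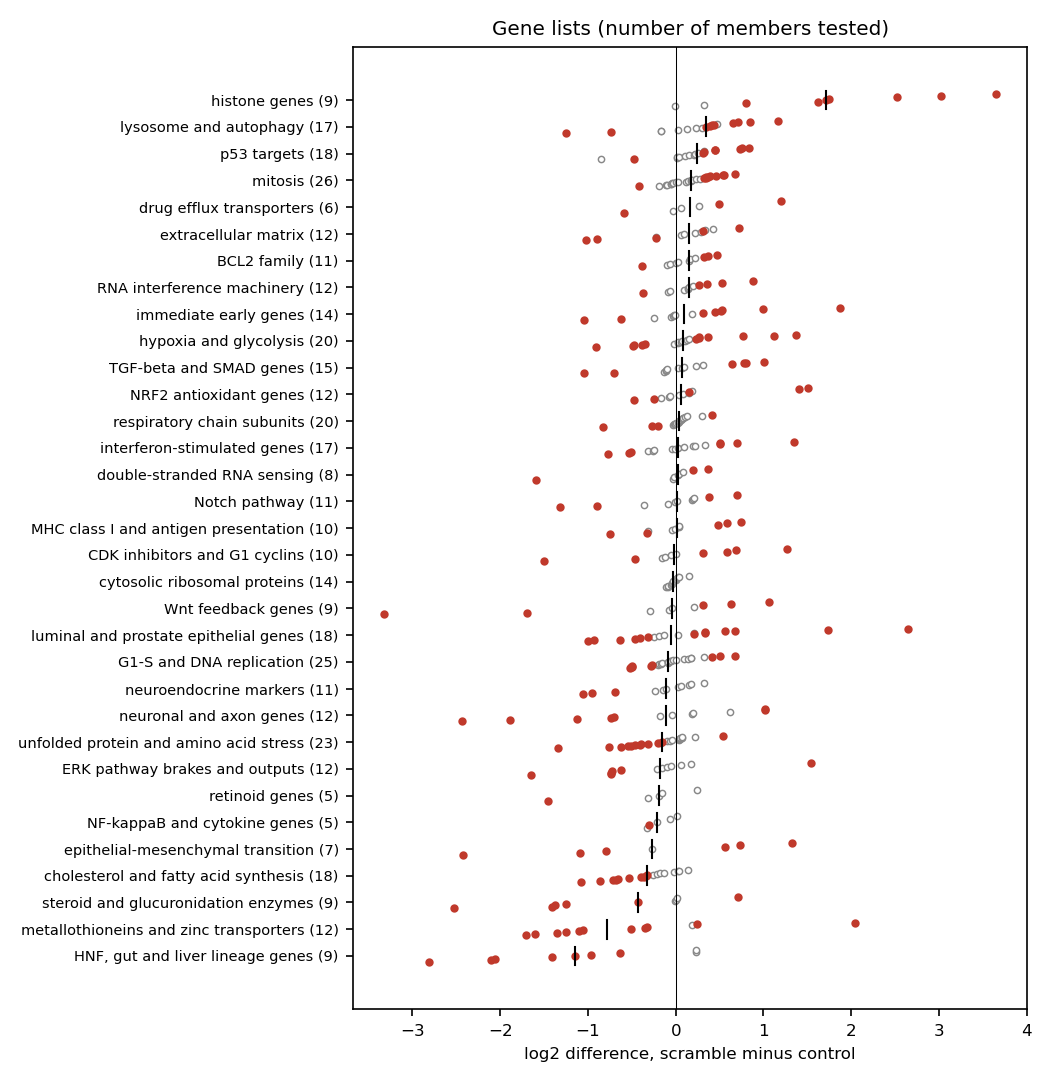
Log2 difference, scramble minus control, of each tested gene in the gene lists, with the list median marked and the number of members tested in brackets. The liver and gut list (median -1.15) and the metallothionein and zinc list (median -0.78) lie to the left, the histone list (median 1.71) to the right, and the ribosomal proteins (median -0.03) close to 0.

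For some genes both shRNA lines were called different from the controls, in the same direction, with no difference called between scramble and shRNA arrays. The 7 given here were chosen after their values were seen. Other genes, GCLC and IER2 among them, have the same calls, and since both comparisons use the same control arrays no count of such genes is given. For the 7 genes, the adjusted p of shRNA against control was between 6.17e-06 (AKR1C3) and 0.00575 (HEY1). Beside AKR1C3 and GDF15, SLC45A3 averaged 8.59 ± 0.28 on control, 7.59 ± 0.21 on scramble and 7.64 ± 0.10 on shRNA arrays, where the lines differed by -0.05 ± 0.14 (adjusted p = 0.788). STEAP1, a metalloreductase of the prostate cell surface, averaged 11.96 ± 0.00233, 11.33 ± 0.08 and 11.17 ± 0.11 (difference 0.16 ± 0.08, adjusted p = 0.0937). The Notch target HEY1 averaged 7.21 ± 0.03, 7.91 ± 0.23 and 7.73 ± 0.08 (difference 0.18 ± 0.11, adjusted p = 0.188). TNFRSF19 averaged 5.48 ± 0.11, 3.78 ± 0.28 and 4.22 ± 0.38 (difference -0.44 ± 0.20, adjusted p = 0.0805). HLA-B, an antigen-presenting class I molecule, averaged 6.64 ± 0.45, 7.38 ± 0.03 and 7.78 ± 0.25 (difference -0.40 ± 0.17, adjusted p = 0.0743). A p above the threshold does not show that the lines were equal. Scramble against control for STEAP1 had an adjusted p of 1.68e-05, or 0.147 with the LNCaP arrays.

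The genes whose values over the 12 arrays of 22Rv1 cells were most like those of ONECUT2 were taken by Pearson correlation, as a description in which the 4 groups set most of the spread. They were RFLNB (r = 0.98), LDLRAD3 (0.98), TNNI3 (0.98), PPM1H (0.98) and HAPSTR1 (0.99). RFLNB, a filamin-interacting protein, read 10.18, 10.11 and 10.09 on the control arrays and 9.09, 8.97 and 9.08 on those labelled scramble, with 10.67, 10.85 and 10.82 on the shRNA arrays. Of these 3 groups it was lowest on scramble and highest on shRNA arrays, as ONECUT2 was. Against control, LDLRAD3 fell by 0.99, the phosphatase PPM1H by 0.76 and the troponin TNNI3 by 0.85 (adjusted p = 8.83e-06, or 0.291 with the LNCaP arrays). HAPSTR1 fell by 0.52 on this probe set, but another of its probe sets, used when all 18 arrays choose it, differed by 0.18 (adjusted p = 0.228). Of its 4 other probe sets over the filter, 0 lay apart the same way, 1 lay the opposite way and 3 overlapped between groups. The mean of its probe sets gave -0.03 (adjusted p = 0.707 in limma).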

How the data were processed

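Total RNA of the 18 samples was hybridised to Affymetrix U133 Plus 2.0 arrays after 3' in vitro transcription labelling, per the labels' protocols. The authors deposited 1 log2 value per probe set and array, produced by GCRMA per the submitters' processing notes. GCRMA subtracts a background estimated from probe sequences, makes array distributions equal and combines the probes of a set. The sources used here give neither its version nor which arrays were processed together. Quantile normalization forces arrays to 1 distribution, so a shift of all genes together cannot be seen.

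There were 54675 probe sets, including 62 platform controls. Named through the supplied gene table, 41091 had 1 symbol, 1801 several and 11721 none. Of 19775 genes, each is represented by the brightest of its single-symbol probe sets, by mean over the 12 arrays of 22Rv1 cells. A gene was tested if over a log2 value of 4 on at least 3 of the 6 control and scramble arrays, and 8725 genes were not. Group means were fitted in limma 3.58.1 under R 4.3.3 on the 12 22Rv1 arrays (8 residual degrees of freedom), with trend and robust moderation and Benjamini-Hochberg adjustment over all 11050 genes. A gene with an adjusted p under 0.05 is called. ONECUT2 probe sets come from a fit of all probe sets. Where the lower group is under 4 on all 3 arrays, the fold is a lower bound against 4. The script was tested on simulated data.

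The members, lists and rules were chosen with earlier results of these data known. Genes named are ONECUT2, the 12 largest rises and falls (characterised coding genes with groups apart and a mean of at least 6), up to 4 called genes per list by p, and KLK3, FOXA1, PEG10, CHGA and HNF4G; others, including further list members, were chosen after their values were seen. Of the genes named by these rules or for their likeness to ONECUT2, 61 had another probe set over the filter. In 46 of them all of these lay apart the same way. Genes chosen after their values were seen are not part of this count. In 4 genes (CUX1, DUSP4, HAPSTR1 and PARP9) at least 1 lay the opposite way.

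Promoter sequences are those of RefSeq (GRCh38.p14), with an entry for 352 of 436 tested list genes. The hairpin sequences were not used here. Same-numbered arrays did not deviate together in all 3 pairs (r = -0.06, 0.46 and 0.36), so the replicate number was not used as a block in the reported fit. Alternatives were the arrays in the fit, the block, centring, a further quantile normalization, filters, the probe set rule, moderation, a floor at 4, and leaving out each array.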

Additional observations from a re-analysis of the deposited data

How the results depend on the processing

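With the LNCaP arrays added to the fit and each gene's probe set chosen again by its mean over all 18 arrays, changes made together, scramble against control gave 2629 calls and scramble against ONECUT2 shRNA 3439, in place of 4711 and 5451, and the cause was not tested. Of 4708 called genes tested there, 2617 were called again and 3 of those had the opposite sign. Leaving out 1 array at a time gave 3822 to 4754 calls against control and 4745 to 5297 against ONECUT2 shRNA. With the replicate number as a block the counts were 4819 and 5558; arrays 2 and 3 labelled scramble deviated most like the control array of their own number, and array 1 did not. PEG10, not called in the reported fit, passed with the block (adjusted p = 0.0392). The count of genes at 2-fold or more was 326 with the mean of all probe sets of a gene, in place of 536. The dim ONECUT2 probe set 207676_at passed the threshold with only the compared groups in the fit (-0.43, adjusted p = 0.0310), after median centring (-0.51, 0.0222) and after a further quantile normalization (-0.44, 0.0441). Over the fits without 1 array it ran from -0.53 to -0.34, and passed without control replicate 1 (0.0404). The other ONECUT2 probe sets kept their direction and their side of the threshold in all alternatives run, over the fits without 1 array from -1.54 to -1.32 (239911_at), -1.98 to -1.56 (233446_at), -0.65 to -0.55 (230271_at) and -0.15 to -0.05 (233441_at). Of the single genes, HAPSTR1 turned to 0.18 with all 18 arrays and DUSP4 to 0.048 with the mean of probe sets, where other probe sets stand for the gene. Genes not called and close to 0 changed sign: without 1 array CYP1B1 ranged from -0.33 to 0.0054, AHRR from -0.0046 to 0.17, H2AZ1 from -0.017 to 0.0082 and ISG15 from -0.0033 to 0.062, after median centring LDHA was -0.042 and ISG15 -0.042, and by the mean of probe sets H2AZ1 was 0.015. Over 194 named genes and 3053 alternatives, 2947 kept direction and side, 90 lost their call and 6 gained one. Array number, 3 a group, limits the precision, and genes near a log2 value of 4 have only bounds.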

Other observations

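The 22Rv1 arrays labelled ONECUT2 overexpression offer a further level for the genes described above, given here as values only. A contrast of these arrays with control was also fitted, and its tests are not reported here. Among liver and gut genes, CYP2C8 averaged 4.69 ± 0.29 (SD, n = 3) on those arrays, 8.56 ± 0.24 on control and 4.44 ± 0.12 on the arrays labelled scramble. ALB averaged 10.96 ± 0.06, 12.75 ± 0.13 and 10.65 ± 0.19, and LGR5 8.17 ± 0.41, 10.97 ± 0.27 and 7.64 ± 0.11. The ONECUT2 probe sets did not move together on the overexpression arrays. Probe set 239911_at averaged 8.75 ± 0.14 there against 8.21 ± 0.05 on control, while 233446_at averaged 4.46 ± 0.21 against 5.43 ± 0.36.

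For the histone gene H2AC6 the overexpression arrays averaged 12.06 ± 0.16, above the 9.74 ± 0.13 of the scramble arrays. KLK3 lay the opposite way, at 4.13 ± 0.07 on overexpression and 10.04 ± 0.21 on scramble arrays. The metallothionein MT1X averaged 11.47 ± 0.07 on overexpression, 11.12 ± 0.11 on control and 9.86 ± 0.10 on scramble arrays.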
